A study of Mus musculus with 4 samples.

Results

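The chromosome 4 flanks around Tox are the open chromatin regions that lie between 0.1 and 5 Mb from either end of the Tox gene (GRCm38, chromosome 4, 6686353 to 6991557). They were found by merging the ATAC-seq peaks of the 4 libraries wherever peaks overlapped by 1 bp, keeping regions that overlapped 1686353 to 11991557 and leaving out those that touched 6586353 to 7091557. This gave 319 of the 97394 regions of the genome, 84 below Tox (at lower coordinates) and 235 above it. The rule uses positions alone and no peak value, but the gene and its surroundings were picked with earlier results of these data known. The libraries came from CD4 T cells of mice that carry the transgenic SMARTA T cell receptor. Naive WT and KO cells, KO meaning that the cells lacked TOX, had been put into cytoxan-treated hosts bearing B16-GP61 melanoma, and cells of the draining node of the tumor were sorted at day 11. Both sorts took CD4+ cells. High PD1, LAG3 and CD39 together with Ly5.1+ Ly5.2+ further defined the sort for the 2 WT libraries, and low PD1, LAG3 and CD39 together with Ly5.1+ Ly5.2- that for the 2 KO libraries. Where a pair of values is given for a genotype, it stands for KO-1 and KO-2 or for WT-1 and WT-2, in this order. Genotype, congenic marker and sort gate therefore cannot be told apart in any WT and KO comparison below. The labels give neither the design of the Tox allele nor its strain of origin, nor whether replicates were separate animals, so the spread between replicates may be technical.

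ATAC-seq marks DNA that a transposase can reach, which in T cells is mostly promoters and enhancers. TOX is a DNA-binding protein of the HMG-box family, known from T cell development and from T cells under chronic stimulation. Enhancers often lie far from the gene they act on, often in stretches with few genes. Each side of Tox holds 21 protein-coding genes within the flanks, but none lies in the first megabase above Tox. Tox is transcribed from its upper end towards lower coordinates, so regions above Tox lie upstream of its promoter and regions below Tox lie past its 3′ end. Next above it, at 1149.9 kb, comes Car8, a carbonic anhydrase-related protein of neurons. Rab2a, a GTPase of the early secretory pathway, follows at 1543.9 kb and Chd7, a chromatin remodeler, at 1698.8 kb. Below Tox the nearest genes are Nsmaf, an adaptor of a TNF receptor, at 231.5 kb, Sdcbp, which encodes the scaffold syntenin, at 290.2 kb, and Cyp7a1, the rate-limiting enzyme of bile acid synthesis, at 410.7 kb.

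Sequences in the first megabase above Tox are shown at the starts of long noncoding RNAs, since no protein-coding gene starts there. RefSeq (GRCm38.p6) windows, each running from 250 bases before to 50 bases after a start, were matched for 16 genes of the flanks (19 windows), among them 3 of the 42 protein-coding genes. The 3 windows within 5 kb of a region found in both KO libraries and neither WT library are printed 5′ to 3′, with motif matches in capitals. They are the second start of Gm33462 (chr4:7152683-7152982, plus strand, 229 bp from such a region), the start of Gm33752 (chr4:7648860-7649159, minus strand, 3367 bp) and the third start of Gm33539 (chr4:7168630-7168929, plus strand, 3453 bp).
Gm33462: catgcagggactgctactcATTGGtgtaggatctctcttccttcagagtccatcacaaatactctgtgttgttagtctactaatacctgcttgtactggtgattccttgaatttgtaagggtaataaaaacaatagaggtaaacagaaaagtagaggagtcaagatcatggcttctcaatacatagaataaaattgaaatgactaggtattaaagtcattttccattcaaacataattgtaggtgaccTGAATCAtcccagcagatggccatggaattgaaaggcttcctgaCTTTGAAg
Gm33752: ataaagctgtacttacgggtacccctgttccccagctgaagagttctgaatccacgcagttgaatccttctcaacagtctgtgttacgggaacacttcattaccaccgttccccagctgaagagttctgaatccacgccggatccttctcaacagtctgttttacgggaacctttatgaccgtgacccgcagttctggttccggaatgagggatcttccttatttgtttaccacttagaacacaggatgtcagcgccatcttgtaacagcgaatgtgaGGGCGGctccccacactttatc
Gm33539: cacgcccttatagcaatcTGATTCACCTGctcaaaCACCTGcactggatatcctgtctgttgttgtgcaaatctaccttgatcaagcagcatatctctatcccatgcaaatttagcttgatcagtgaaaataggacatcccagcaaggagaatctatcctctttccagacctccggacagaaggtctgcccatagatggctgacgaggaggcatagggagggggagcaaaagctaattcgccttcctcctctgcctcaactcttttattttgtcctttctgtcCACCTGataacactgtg
None of these windows overlapped a peak region. They hold matches to the AP-1 motif TGANTCA (Gm33462, Gm33539), the NFY motif CCAAT and the TCF motif CTTTGAA (Gm33462), the SP and KLF motif GGGCGG (Gm33752) and the E protein motif CAGGTG (Gm33539), read on both strands. In Gm33539 the AP-1 match overlaps an E protein match, and both lie within 1 run of capitals. Of all 32851 RefSeq windows, 7.81% hold TGANTCA, 37.4% CCAAT, 5.14% CTTTGAA, 35.7% GGGCGG and 20.2% CAGGTG. Among the 19 flank windows the counts were 6, 7, 2, 2 and 4, or 31.6%, 36.8%, 10.5%, 10.5% and 21.1%. These windows come from 16 genes, of which 3 are protein-coding, so they need not resemble all windows in kind. Matches to the ETS (CCGGAAGT), CRE (TGACGTCA) and E-box (CACGTG) motifs numbered 0 in the flank windows and the RUNX motif (TGTGGTT) 1, against 3.89%, 1.79%, 7.15% and 5.27% of all windows. A match is a description of letters, not a binding site.

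The KO lists held 43078 and 61773 peaks and the WT lists 56852 and 61489, of which 2691 and 3684 and 3329 and 3594 lay on chromosome 4. The files hold no read numbers, so depth is unknown. Values per peak are the authors' fold enrichment over background within that library, and were compared between libraries only as percentiles, where 100 would be the strongest peak of a list. Over its upper end Tox had a peak in both WT libraries (fold 6.57 and 7.12) and in no KO library, and since the deleted part of Tox is not stated, this checks the labels only in part.

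KO-only regions, with a peak in both KO and neither WT library, were gathered on one side of Tox. The flanks held 22 KO-only regions of 319, or 6.90%, while 1.78% of all regions and 1.53% of those on the rest of chromosome 4 (80 of 5236) were KO-only. Above Tox 21 of 235 regions were KO-only (8.94%), and below Tox 1 of 84 (1.19%). WT-only regions, the reverse, numbered 33 (10.3%), against 8.8% of all regions and 8.38% of the rest of chromosome 4. Their sides were reversed, with 16 of 84 below Tox (19.0%) and 17 of 235 above it (7.23%). Another 102 flank regions had a peak in all 4 libraries and 122 in a single one. No test over regions was made, because regions share libraries and are not replicates. With 1 library left out the rule is looser for every region, on the rest of chromosome 4 too. The KO-only share of the flanks was then 25.2% against 22.4% on the rest without KO-1, and 14.6% against 12.3% without KO-2, so the excess was far smaller when a single KO library had to carry it. Without WT-2 it was 10.7% against 3.36%. The WT-only share below Tox was 31.4% against 17.0% without KO-2, 41% against 22.6% without WT-1 and 32.9% against 19.0% without WT-2.

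**Figure D1:**
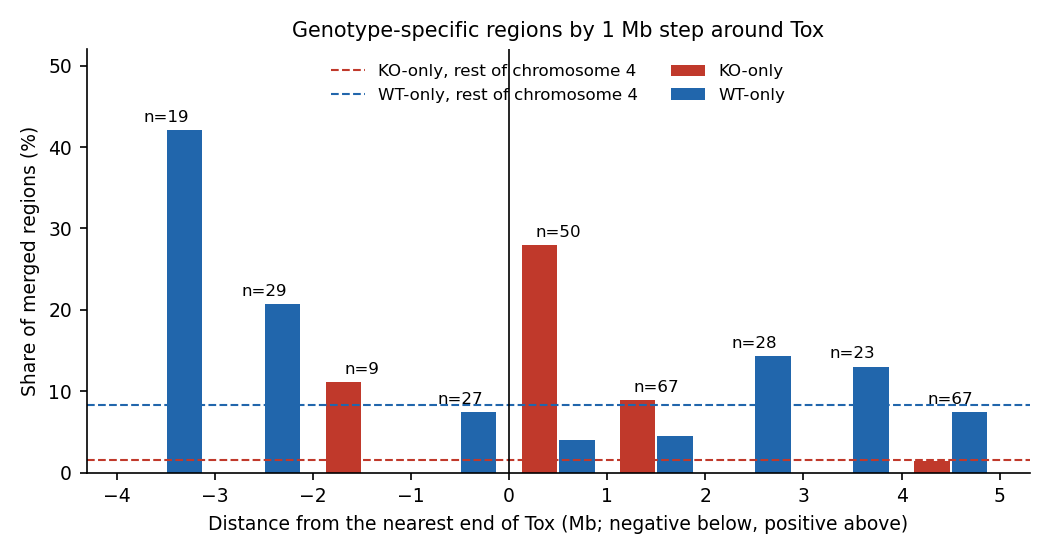
Share of merged regions that were KO-only (red) or WT-only (blue) in 1 Mb steps from the nearest end of Tox, with the number of regions above each step and dashed lines for the rest of chromosome 4. KO-only regions reached 28.0% in the first step above Tox and WT-only regions 42.1% in the farthest filled step below it.

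In the first step, from 0.1 to 1 Mb above Tox, regions with a peak in KO libraries outnumbered those with a peak in WT libraries. Of its 50 regions, 31 and 40 had a peak in KO, and 14 and 22 in WT. KO-1, with the shortest list, thus had more of these regions than either WT library. The KO-only regions numbered 14 (28.0%) and the WT-only regions 2 (4.0%). Counting a peak in at least 1 library of a genotype and none in the other, 28 regions (56.0%) were open in KO alone and 6 (12%) in WT alone, against 28.2% and 30.8% of all regions and 28.9% and 28.4% on the rest of chromosome 4. Without KO-1 the KO-only share was 52.2% in this step and 22.4% on the rest of the chromosome, and without KO-2 it was 43.9% and 12.3%. All 50 regions lay more than 100 kb from any protein-coding gene, as did 12.5% of regions on the rest of the chromosome. The limits of the step fix this in advance, since it starts 0.1 Mb above Tox and the next gene, Car8, lies at 1149.9 kb.

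The 14 KO-only regions of this step ran from 160.6 to 862.1 kb above Tox. Nearest to Tox came the lncRNA gene Gm33462, with a region at 7151940 to 7152454 (fold 4.15 in KO-1 and 4.19 in KO-2) and another at 7156324 to 7156931 (5.77 and 7.86). Gm33539 followed with 7172382 to 7173025, at 2.78 and 6.52, and Gm33646 with 7199182 to 7199596, at 4.75 and 10.9. The region in Gm33646 had the highest fold in KO-2 among all KO-only regions of the flanks. Including Gm33752 (7645201 to 7645493, 3.6 and 5.82), 5 of the 14 regions lay in lncRNA genes and 9 in no annotated gene. Ranked by the lower of the KO percentiles, 7341078 to 7341802 came first among those 9 (5.73 and 7.69), before 7527704 to 7528110 (4.42 and 6.76), 7687169 to 7687775 (3.76 and 7.69) and 7512907 to 7513443 (3.6 and 5.59). By KO-2 alone 7441102 to 7441583 was the highest of the 9, with folds of 3.44 and 7.89. The percentile was higher in KO-2 than in KO-1 at 12 of the 14, and both KO percentiles exceeded 50 at 5 of them. Fold enrichment of these 14 had medians of 3.6 and 6.29, where KO-only regions on the rest of chromosome 4 had 3.13 and 3.96. Their median width was 504.5 bp against 312 bp. The 2 WT-only regions of the step, 7405212 to 7405431 and 7499516 to 7499897, were among the weaker peaks of their lists, with folds of 3.06 and 2.83 at the first and 3.82 and 3.11 at the second.

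**Figure D2:**
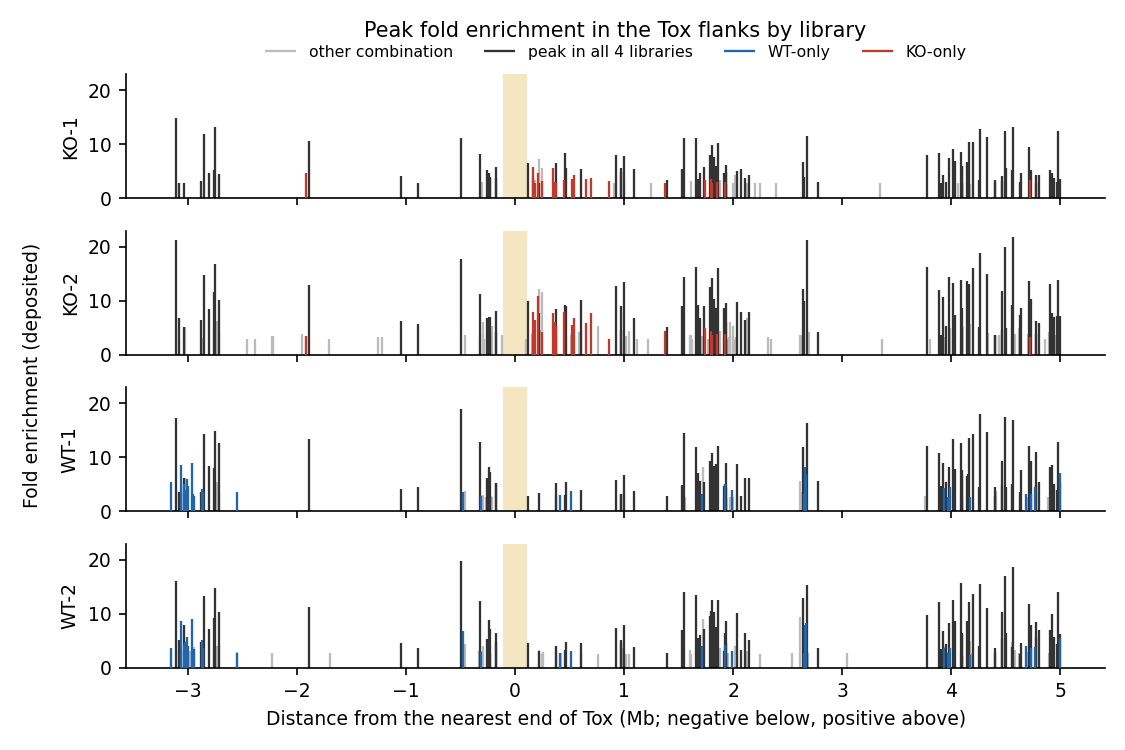
Deposited fold enrichment of every flank region in each library (rows) against distance from the nearest end of Tox in Mb, coloured by the combination of libraries with a peak; the shaded band within 0.1 Mb of Tox is not part of the set. Red KO-only lines crowd from 160.6 to 862.1 kb above Tox in both KO libraries, and blue WT-only lines crowd near −3 Mb in both WT libraries.

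Regions of the same step that were open in every library ranked higher in KO. All 10 had a higher mean percentile in KO than in WT, by 9.92 to 50.8 points, with a median of 17.3 points, against a median of −1.33 over the 1581 such regions on the rest of chromosome 4. Among the shared regions of the flanks that ranked higher in KO, the largest gap was at 7447905 to 7449026, in no annotated gene, with folds of 8.45 and 9.25 in KO and of 3.06 and 3.25 in WT. Next in this step came 7112007 to 7112891, with 6.54 and 9.94 in KO and 2.90 and 4.66 in WT. Both KO percentiles exceeded both WT percentiles at 8 of the 10, and the reverse held at none, while 16.5% and 25.9% of all 26867 such regions were separated in these ways. At 7206869 to 7207337 in Gm33646 the genotypes overlapped, since the folds were 2.78 and 7.69 in KO and 3.36 and 3.11 in WT. Taking each library's median percentile over the 10 regions minus that over the rest of chromosome 4, the values were 4.06 and 0.833 in KO and −35.3 and −18.7 in WT. KO and WT did not overlap, and the difference of the means was 29.4 points (exact permutation p = 0.333, two-sided, the smallest that 2 against 2 libraries can give).

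**Figure D3:**
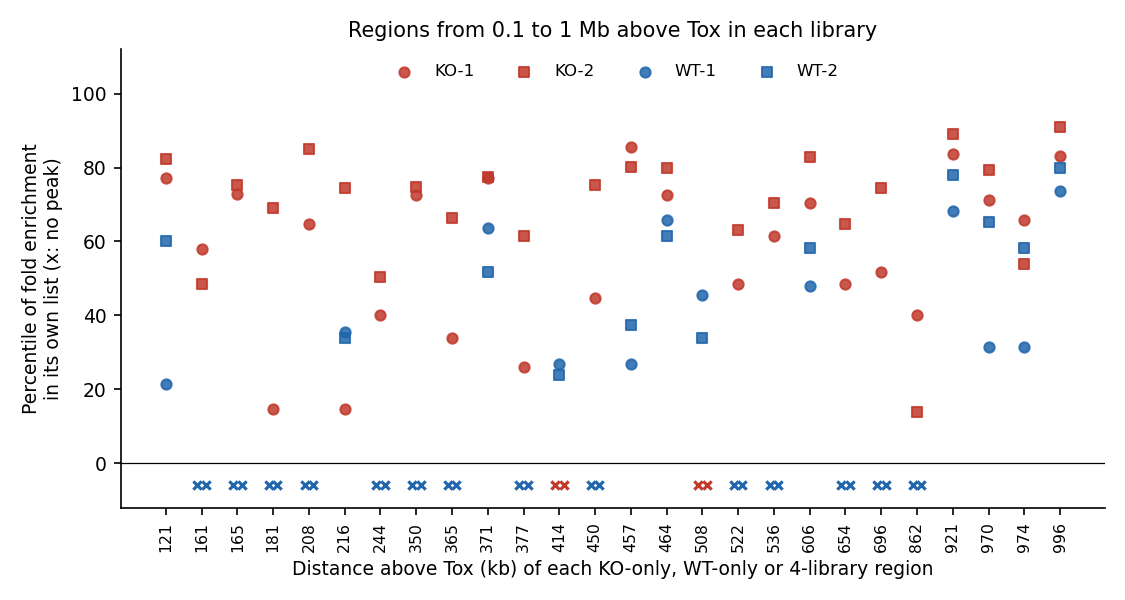
Percentile of fold enrichment within its own list for each KO-only, WT-only or 4-library region from 0.1 to 1 Mb above Tox, by library, in order of distance (kb); crosses mark libraries without a peak. At 8 of the 10 regions open in all 4 libraries both red KO marks lie above both blue WT marks.

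From 1 to 2 Mb above Tox the KO-only share was lower, at 6 of 67 regions (8.96%), and 3 regions were WT-only (4.48%), against 1.53% and 8.38% on the rest of chromosome 4. Without KO-1 the KO-only share was 33.9% and 22.4% on the rest, without KO-2 18.9% and 12.3%, and without WT-2 13.9% and 3.36%. With a −log10 q of at least 5 the share was 4.76% (2 of 42) against 2.06%, and with at least 10 it was 3.57% (1 of 28) against 2.42%. Chd7 carried most of them. It had 45 regions, with a peak at 26 and 40 in KO and at 25 and 27 in WT, of which 5 were KO-only, 2 WT-only and 18 open in all libraries. Inside the Chd7 gene the KO-only regions were 8728801 to 8729304 (fold 3.44 in KO-1 and 5.04 in KO-2), 8788239 to 8788684 (3.53 and 4.47), 8800071 to 8800263 (2.80 and 3.76) and 8838612 to 8838920 (3.11 and 3.94). The 1 left, 8913651 to 8913963, lay past its upper end (3.07 and 3.79). Apart from Chd7, 8367655 to 8367881 was KO-only and lay beyond 100 kb of any protein-coding gene (2.78 and 4.43). Across the lower end of Chd7, 8689852 to 8692256 was open in every library, at folds of 4.69 and 6.86 in KO and 5.62 and 6.07 in WT, a percentile difference of −1.40. Inside Chd7, 8709103 to 8709521 was WT-only (3.15 and 4.05). Past the upper end of Chd7 the values went both ways. There the shared region 8906680 to 8907181 ranked higher in KO by 24.6 points, and 8915604 to 8915992 was WT-only (5.09 and 4.24). Close by, 8917175 to 8917620 had the most negative percentile difference of the flanks, −55.3 points, with folds of 2.60 and 3.09 in KO and 5.12 and 6.49 in WT. Another shared region within Chd7, 8803162 to 8803484, also ranked higher in both WT libraries (−29.7 points), with folds of 2.84 and 3.91 in KO and 4.94 and 5.03 in WT. Over the 23 shared regions of this step the median difference was 1.08 points, and 12 of 23 were higher in KO.

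Farther out, from 2 to 5 Mb above Tox, 1 of 118 regions was KO-only (0.847%) and 12 were WT-only (10.2%), shares close to those of the rest of chromosome 4. Its single KO-only region lay in Gem, which encodes a small GTPase of the RGK family, at 11712933 to 11713622 (fold 3.34 in KO-1 and 3.26 in KO-2). Gem also had 2 WT-only regions, of 8 in all. Asph, the gene of an aspartate hydroxylase of the endoplasmic reticulum, had 4 WT-only regions of 13. Of these 4 the strongest were 9649432 to 9649928 (8.24 in WT-1 and 7.86 in WT-2) and 9657141 to 9658088 (6.94 and 8.34). Each lay inside the gene, and the shared region across its upper end, 9668537 to 9669587, differed by 0.46 points. At Cdh17, a cadherin gene, 11757689 to 11758535 was WT-only (4.47 and 3.86), and the shared region 11762776 to 11763795 had folds of 2.78 and 3.96 in KO and 11.0 and 8.54 in WT, a difference of −54.9 points. Plekhf2, an endosomal protein gene, had 2 WT-only regions of 10. Single ones stood at Trp53inp1, a p53-induced gene, at Pdp1, a pyruvate dehydrogenase phosphatase (11989345 to 11989697, 7.08 and 5.45), and at 2610301B20Rik. Those genes had 8, 8 and 12 regions in this order. Of all regions 8.8% were WT-only. Higher in both KO libraries was 9066225 to 9066906 near Clvs1, by 43.5 points, with folds of 5.40 and 7.92 in KO and 2.90 and 3.25 in WT. The same held for 11090676 to 11091091 near Ndufaf6, a complex I assembly factor gene, by 38.0 points, with 2.94 and 5.1 in KO and 2.55 and 2.19 in WT. The WT percentiles of this region, 4.50 and 1.43, lay near the floor of their lists. The median over the 48 shared regions from 2 to 5 Mb above Tox was −0.47 points.

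**Figure D4:**
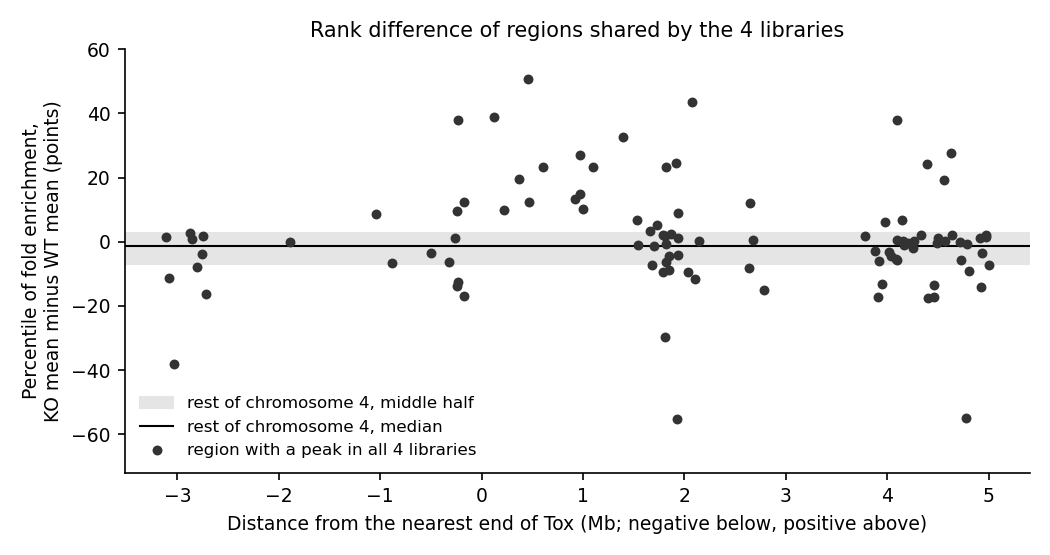
KO mean minus WT mean percentile of fold enrichment for the 102 flank regions open in all 4 libraries, against distance from Tox in Mb; the line and the grey band give the median and the interquartile range of such regions on the rest of chromosome 4. All 10 regions in the first megabase above Tox lie above the band.

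Below Tox the WT-only share exceeded that of the rest of chromosome 4, and the excess lay from 2 to 4 Mb away. Within 2 Mb there were 36 regions, 1 of them KO-only (2.78%) and 2 WT-only (5.56%). On the rest of chromosome 4 these shares were 1.53% and 8.38%. The KO-only one was in Bpnt2, which encodes a nucleotide phosphatase of the Golgi (4771633 to 4771822, 4.74 in KO-1 and 3.49 in KO-2). The WT-only ones were in Ubxn2b, an adaptor of the p97 ATPase (6209413 to 6210000, 3.67 in WT-1 and 6.78 in WT-2), and in Sdcbp (6371213 to 6371560, 2.88 and 3.0). Nsmaf, the nearest gene, had 14 regions, 7 open in every library and none genotype-specific. From 2 to 4 Mb 14 of 48 regions were WT-only (29.2%) and none KO-only, against 8.38% and 1.53% on the rest of chromosome 4. The WT-only share was 57.8% without WT-1 and 48.6% without WT-2, against 22.6% and 19.0% on the rest, and without KO-1 the KO-only share was 10.4% against 22.4%. Below 3529788, where the first peak of any list on chromosome 4 starts, the flank held no region, so the last megabase of this side is empty.

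Lyn, a Src family kinase of B cells and myeloid cells, accounted for 8 of those 14. Its 21 regions had a peak at 2 and 3 in KO and at 14 and 18 in WT. Across the lower end of the gene, 3677917 to 3679109 was WT-only, with folds of 5.99 and 5.73. Inside the gene, 3724598 to 3725057 was the strongest WT-only region of the flanks (8.89 and 9.05). A shared region 28995 bp below Lyn, 3648311 to 3649836, had a percentile difference of −38.2 points, with folds of 2.78 and 5.12 in KO and 6.10 and 7.92 in WT. The neighbours had fewer. Tgs1, an RNA cap methyltransferase, had 2 WT-only regions of 5 (3626578 to 3627318, 8.54 and 8.64, and 3647101 to 3647493, 5.06 and 4.27). The ribosomal protein gene Rps20 had 2 of 5, and Tmem68 and the enkephalin precursor gene Penk 1 of 3 each. With Lyn and 100 kb around it left out, a choice made after its values were seen, WT-only regions were 7.69% of those below Tox and 7.32% of both flanks, below the 8.38% of the rest of chromosome 4. This also takes out neighbours of Lyn, and of the 48 regions from 2 to 4 Mb it leaves 16, of which 2 were WT-only (12.5%, above the rest). The markers of B cells moved in the same direction as Lyn. All 12 B cell genes had a region, with 72 WT-only and 1 KO-only of 157, and 14 and 21 of these regions had a peak in KO against 113 and 129 in WT. Of the 12 genes, 6 had no peak in KO-1 and 3 none in KO-2, while each had one in both WT libraries. Of 11 myeloid and dendritic cell genes 10 had a region, 6 had no peak in KO-1, 5 none in KO-2 and 1 none in either WT library. Their regions with a peak numbered 24 and 39 in KO and 62 and 67 in WT, with 29 WT-only and 2 KO-only of 86. For 12 T cell genes these numbers were 80 and 105 in KO and 84 and 85 in WT, with 10 KO-only and 7 WT-only regions of 131, and each T cell gene had a peak in every library. For 7 melanocyte genes they were 8 and 16 in KO and 8 and 8 in WT, with no genotype-specific region. As shares, 45.9% of B cell, 33.7% of myeloid and dendritic cell and 5.34% of T cell gene regions were WT-only, against 8.8% of all regions. KO-only shares were 0.64%, 2.33% and 7.63%, against 1.78% of all regions. KO-only regions outnumbered WT-only ones at 5 of the 12 T cell genes, and the reverse held at 2. Both sort gates required CD4 and Ly5.1, and the labels give no purity of the sorts. The part of B cell and myeloid cell chromatin in the WT-only regions at Lyn was not tested, and in sorted populations fewer cells of a type and less open chromatin per cell cannot be told apart.

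By role, the flank genes divided as follows, beside 8.8% WT-only and 1.78% KO-only among all regions. Signalling kinases (Lyn and Mos) had 8 WT-only and no KO-only regions of 22 (36.4% WT-only), all 8 at Lyn. Chromatin and transcription genes (Chd7, Plag1, Fsbp) had 5 KO-only and 2 WT-only of 47 (10.6% and 4.26%), all of them at Chd7. Cell cycle and repair genes (the cyclin E2 gene Ccne2, Rad54b, Trp53inp1) had 1 WT-only region of 16 (6.25%), and RNA and ribosome genes (Tgs1, Ints8, Virma, Rps20) had 4 of 18 (22.2%). Of those 4, 2 were assigned to Tgs1 and 2 to Rps20, the neighbours of Lyn. Each lay outside the gene it was assigned to and within 100 kb of Lyn, so the 22.2% belongs to the surroundings of Lyn. Membrane traffic and adaptor genes (Rab2a, Sdcbp, Plekhf2, Ubxn2b, Nsmaf) had 4 WT-only regions of 43 (9.30%), which like the 6.25% lies near the share of all regions. Metabolic genes had 5 WT-only and 1 KO-only of 37 (13.5% and 2.70%). Of those 5, 4 were at Asph and 1 at Pdp1, so the 13.5% rests mostly on Asph. Secreted or surface proteins had 2 WT-only of 11 (18.2%), 1 at Penk and 1 at Cdh17. Of the 42 protein-coding genes in the flanks 35 had a region, 15 a WT-only and 3 a KO-only one, and Chd7 and Gem had both kinds. No such count over all protein-coding genes is set beside these numbers, so they describe the flanks alone.

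Counted by library, peaks in the first step above Tox made up 1.15% and 1.09% of the chromosome 4 peaks in KO and 0.481% and 0.640% in WT, so the genotypes did not overlap. The means were 1.12% ± 0.0468 in KO and 0.560% ± 0.113 in WT (SD, n = 2 each; exact permutation p = 0.333, two-sided). Over the whole upper side the shares were 4.90% ± 0.215 in KO and 4.01% ± 0.0687 in WT (SD, n = 2 each; exact permutation p = 0.333). Below Tox WT was the higher one, at 1.69% ± 0.133 against 1.07% ± 0.298 (SD, n = 2 each; exact permutation p = 0.333). In each of these the difference exceeded the SD of either genotype, but 2 against 2 libraries cannot pass a threshold of 0.05. From 2 to 5 Mb above Tox the shares were 2.33% ± 0.335 in KO and 2.38% ± 0.0269 in WT and overlapped (SD, n = 2 each; exact permutation p = 1.0). Over the 102 shared regions of both flanks the median percentile difference was 0.18 points, and it was −1.68 without KO-2, −0.30 without WT-1, −0.81 without WT-2 and 2.44 without KO-1. On the rest of chromosome 4 it was −1.33, and −3.92, −2.01, −0.77 and 0.83 with these libraries left out in the same order.

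Along the rest of chromosome 4, which lies above the flanks, 29 windows of 5 Mb held between 74 and 536 regions. Their KO-only shares ran from 0% to 5.80%, with a median of 1.13%, and their WT-only shares from 0% to 17.9%, with a median of 7.07%. The highest KO-only share among them was in the window that starts 90 Mb above Tox. In windows of 1 Mb with at least 20 regions (96 of 143), KO-only regions reached 7 in number and 11.7% in share, against 14 and 28.0% in the 0.9 Mb first step above Tox. The WT-only share reached 37.5% in 1 of them, above the 29.2% found from 2 to 4 Mb below Tox. Medians of the percentile difference, over the 75 windows of 1 Mb with at least 6 shared regions, ran from −10.7 to 5.65 points, against 17.3 in the first step. These windows were set side by side as a description, without a test.

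**Figure D5:**
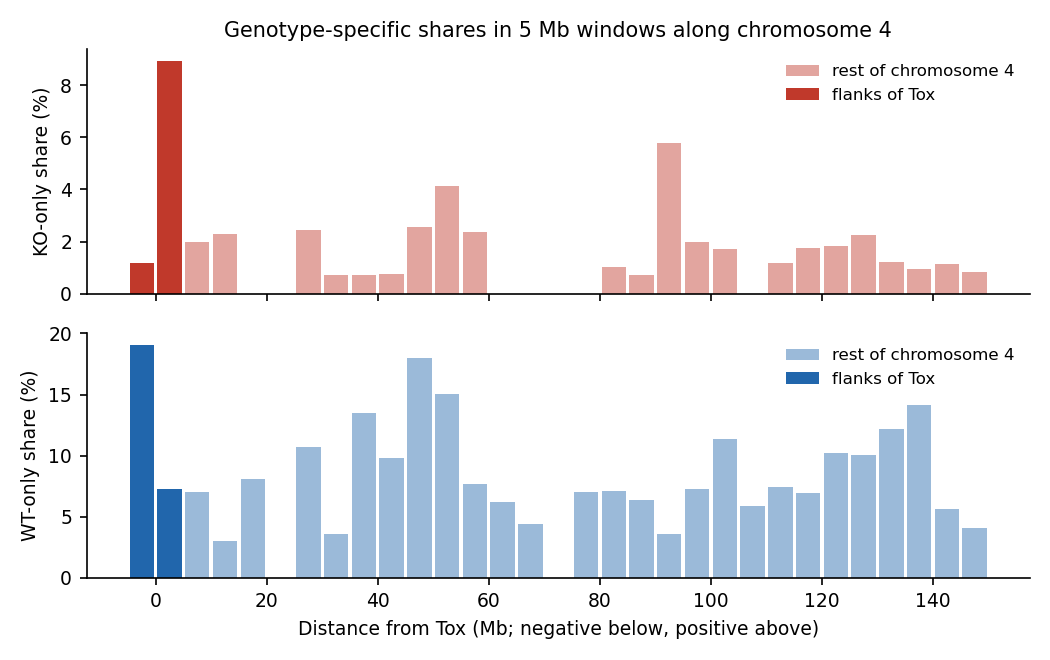
KO-only (top, red) and WT-only (bottom, blue) shares of regions in 5 Mb windows along chromosome 4, against distance from Tox in Mb; dark bars are the flanks, light bars the rest of the chromosome. The flank above Tox has 8.94% KO-only regions, and the highest light red bar is 5.80%.

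The limits of the set cut through open chromatin on the upper side of Tox. Within 0.1 Mb of Tox, outside the set, 7 of 57 regions were KO-only (12.3%) and 1 WT-only, and the 21 shared regions had a median difference of 8.17 points, 20 of them higher in KO. The last region just outside, 7090799 to 7091845, had folds of 4.21 and 5.74 in KO, 3.25 in WT-2 and no peak in WT-1, and the first one inside, 7091940 to 7092099, had a peak in KO-2 alone (2.77). On the lower side the first region inside, 6561714 to 6562080, also had a peak in KO-2 alone (3.73), while the nearest one outside, 6663202 to 6664200, was KO-only (7.2 and 9.15). At the 5 Mb limit above Tox the last region inside, 11989908 to 11990288, was open in every library (3.6 and 7.22 in KO, 5.19 and 6.35 in WT), and the next outside, 12023839 to 12023990, had a peak in KO-2 alone (3.49). Together, regions within 0.1 Mb of Tox and up to 2 Mb above it held 27 of the 109 KO-only regions of chromosome 4. Of the 5612 regions of the chromosome, 57 lay within 0.1 Mb of Tox, 50 from 0.1 to 1 Mb and 67 from 1 to 2 Mb above it. KO-only shares of these parts were 12.3%, 28.0% and 8.96%, against 1.53% on the rest of chromosome 4.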

How the data were processed

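Peaks were listed separately for each of 2 WT and 2 KO ATAC-seq libraries. The submitters' processing notes name MACS2, a peak caller, beside BWA, Picard, SAMtools and deepTools, and the builds mm10 and GRCm38. Versions, filters, read shifting and the order of steps were not given in the sources used here. As deposited, fold enrichment is the ratio of a peak to background within its library, and the deposited −log10 p and −log10 q rank it against that background. The deposited score was not used. From 1603 to 1900 peak numbers were missing per list, so an absent peak can be a removed one.

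Peaks overlapping by 1 bp were merged, and each list's fold enrichment was ranked as a percentile. A region's percentile is that of its highest peak, and its KO minus WT difference was taken where all 4 libraries had a peak. Positions are 1-based and distances run from a region's midpoint to the nearest end of Tox. Regions were assigned to the nearest protein-coding gene within 100 kb (RefSeq, GRCm38.p6). Single values per library were compared by an exact permutation test over the 4 libraries. Merging and ranking were tested on simulated data (Python 3.11, SciPy 1.17.1).

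The members and lists were chosen with earlier results of these data known. The 8 strongest KO-only and WT-only regions, the 4 shared regions at either extreme, the 3 nearest genes on each side, genes with a genotype-specific region and genes of fixed roles were named by rule; other regions, and the lncRNA windows, were chosen after their values were seen. Alternatives were other peak thresholds, list lengths, overlap rules, limits and rankings, gene assignment within 25 kb, each library left out and a replicate block. Depth is unknown, so no counting interval for reads was set.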

Additional observations from a re-analysis of the deposited data

How the results depend on the processing

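The KO-only share from 0.1 to 1 Mb above Tox (28.0%) stayed above that of the rest of chromosome 4 in 12 of 12 alternatives, from 22.7% to 57.9%, and the percentile difference there stayed between 14.6 and 23.4 points. With the 20000 strongest peaks of each list the KO-only share was 57.9% in that step, 17.2% above Tox and 15.2% in both flanks, against 6.29% on the rest of chromosome 4; with 40000 peaks it was 15.5% above Tox and 12% in both flanks, against 3.93%. Leaving out a library loosens the rule for both classes: the KO-only share was then 28.0% to 52.2% in the first step (52.2% without KO-1 and 43.9% without KO-2, against 22.4% and 12.3% on the rest of the chromosome), 9.33% to 27.5% above Tox and 7.26% to 25.2% in both flanks, and the WT-only share 19.0% to 41% below Tox and 11.1% to 22.4% in both flanks. The WT-only excess of the flanks over the rest turned round without WT-1 (22.4% against 22.6%) and WT-2 (18.6% against 19.0%). Flanks ending at 2 Mb gave a KO-only share of 17.1% above Tox and 13.7% in both flanks, a WT-only share of 5.56% below Tox and 4.57% in both, under the 8.61% elsewhere, and a KO-only share of 2.78% below Tox. Without Lyn the WT-only share was 7.69% below Tox and 7.32% in both flanks, and the KO-only share below Tox 1.92%. That last share, resting on 1 or 2 regions, also passed the rest of the chromosome with a −log10 q of at least 10 (2.86%), 20000 peaks (8%) and summits within 150 bp (2.11%). In what follows, rest means the rest of chromosome 4 at the same setting. From 0.1 to 2 Mb below Tox the KO-only share fell to 0% with a −log10 q of at least 5 (rest 2.06%) and with 40000 peaks (rest 3.93%). With 40000 peaks the WT-only share there was 9.09% (rest 9.05%). With a library left out the KO-only share was 3.03% to 30.6%, the highest without KO-1 (rest 22.4%). The WT-only share was then 5.56% without KO-1 (rest 10.2%) to 18.5% without KO-2 (rest 17.0%). From 1 to 2 Mb above Tox the WT-only share was 16.7% (rest 8.6%) with 20000 peaks. From 2 to 5 Mb above Tox the KO-only share was 4.11% (rest 2.06%) with a −log10 q of at least 5 and 4.76% (rest 3.93%) with 40000 peaks. With a library left out it ran from 0.909% without WT-1 (rest 2.42%) to 13.5% without KO-1 (rest 22.4%). The WT-only share there was 12.5% (rest 12.7%) with a −log10 q of at least 10 and 6.82% (rest 8.6%) with 20000 peaks. With a library left out it ran from 11.7% without KO-1 (rest 10.2%) to 22.7% without WT-1 (rest 22.6%).

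The percentile difference over both flanks (0.18 points, against −1.33 on the rest of chromosome 4) had no stable sign, but the rest moved too. It was −3.25 against −4.45 with a −log10 q of at least 5, and 1.68 against 0.34 with 40000 peaks. With an absent peak at percentile 0 it was 1.13 against −1.36, and with flanks to 2 Mb 2.52 against −1.31. With a library left out it was −1.68 to 2.44 against −3.92 to 0.83. It then lay above the rest except without WT-2 (−0.81 against −0.77). Above Tox it was −3.08 (rest −4.45) with a −log10 q of at least 5 and −1.59 to 2.71 with a library left out. Below Tox it was 1.70 (rest 0.34) with 40000 peaks, 1.19 (rest −1.60) with the mean of a region's peaks and −6.63 to 1.20 with a library left out. The KO minus WT difference in the share of chromosome 4 peaks in the flanks (0.267 percentage points) was 0.821 with a −log10 q of at least 5, 0.577 with 40000 peaks and −0.0151 with 250 kb next to Tox left out, and above Tox (0.888) it was 1.34, 1.19 and 0.594. The replicate block, which pairs libraries of the same number although these did not deviate together (r = 0.017 across 26867 regions), gave 0.267 in the flanks (exact sign-flip p = 0.5, the smallest that 2 pairs can give) and 19.6 points for the percentile difference in the first step, and changed no direction. The cause of these shifts was not tested. Depth is unknown, and an absent peak may be a weak one under the caller's threshold.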
